A study of Mus musculus with 12 samples.

Results

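The genes Fos, Fosb, Jun and Junb were followed in the dentate gyrus by ATAC-seq, an assay that uses a transposase to tag open DNA and so maps accessible chromatin. Every deposited peak that overlapped 1 of 4 windows around these genes was taken, in mm9 coordinates: chr12:86764000-86869000 for Fos, chr7:19838000-19945000 for Fosb, chr4:94665000-94770000 for Jun and chr8:87450000-87555000 for Junb. Peaks of all 12 lists that shared at least 1 bp were merged into regions, and 59 of the 170710 merged regions lay in the windows: 12 at Fos, 19 at Fosb, 9 at Jun and 19 at Junb. Each of the 12 libraries came from the microdissected dentate gyrus of 1 C57BL/6 mouse aged 8 weeks, a region of the hippocampus packed with granule neurons. There were 3 groups, E0, E1 and E4, of 4 libraries, and strain, tissue and age were shared by all groups. The labels do not say what these names mean. General knowledge of the study, not its labels, gives that E0 mice were unstimulated, E1 mice were taken 1 h after electroconvulsive stimulation and E4 mice 4 h after it. The study asks how neuronal activity alters accessible chromatin, and the comparisons below rest on the group names.

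The 4 genes encode subunits of AP-1, a transcription factor made of 2 basic leucine zipper proteins that binds DNA as a dimer. Fos and Fosb belong to the Fos family, whose proteins bind DNA as partners of a Jun protein, and Jun and Junb belong to the Jun family, whose proteins can also pair with each other. All 4 are immediate early genes: their transcription starts soon after a stimulus, from factors already present in the cell. In granule neurons such genes are widely used as marks of recent activity, and Fos in particular is known to be controlled by several activity-responsive enhancers on both sides of the gene.

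The promoters of the 4 genes are shown because they hold the elements through which activity is known to reach these genes, among them sites of the cAMP response element kind that bind CREB and ATF proteins. The 250 bases before each transcription start are given from RefSeq (GRCm38.p6), 5′ to 3′ on the strand of the gene, which is the plus strand for Fos and the minus strand for Fosb, Jun and Junb. Capitals mark the letters TGACG, the core of a cAMP response element, and TGACATCA, a variant of the AP-1 site.
Fos: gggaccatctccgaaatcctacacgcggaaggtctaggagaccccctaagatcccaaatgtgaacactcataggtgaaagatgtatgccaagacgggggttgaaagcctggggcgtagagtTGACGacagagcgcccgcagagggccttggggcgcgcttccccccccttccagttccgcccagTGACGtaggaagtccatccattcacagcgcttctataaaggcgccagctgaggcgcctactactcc
Fosb: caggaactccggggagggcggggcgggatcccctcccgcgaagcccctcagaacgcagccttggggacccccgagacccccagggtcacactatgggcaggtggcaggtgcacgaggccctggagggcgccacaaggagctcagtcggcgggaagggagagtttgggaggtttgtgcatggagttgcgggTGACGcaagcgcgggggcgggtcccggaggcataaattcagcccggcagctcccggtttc
Jun: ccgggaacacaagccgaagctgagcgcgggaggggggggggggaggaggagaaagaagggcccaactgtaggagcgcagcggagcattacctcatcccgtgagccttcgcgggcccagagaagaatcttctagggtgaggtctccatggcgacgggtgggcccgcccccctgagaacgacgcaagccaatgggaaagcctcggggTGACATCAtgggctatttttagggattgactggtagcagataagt
Junb: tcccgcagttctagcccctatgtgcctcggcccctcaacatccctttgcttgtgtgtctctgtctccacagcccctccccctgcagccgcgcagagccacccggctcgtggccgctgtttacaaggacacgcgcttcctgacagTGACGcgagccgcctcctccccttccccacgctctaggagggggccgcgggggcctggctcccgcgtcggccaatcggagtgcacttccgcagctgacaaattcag
Fos held TGACG at 129 to 125 and at 66 to 62 bases before its start, Fosb at 60 to 56 and Junb at 106 to 102. Jun held no TGACG and 1 TGACATCA, at 45 to 38 bases before its start. Of the 32851 mouse promoters searched over the same length, 17.8% held TGACG and 2.93% held TGACATCA, both strands counted. The AP-1 letters TGANTCA, found in 6.75% of promoters, and the CArG box bound by serum response factor, found in 1.47%, were not in any of these 4 windows of 250 bases. Bases farther upstream were not searched, so these genes may have such sites beyond the 250 bases. The G+C content was 58.4% for Fos, 68.8% for Fosb, 61.2% for Jun and 66.4% for Junb, against a median of 52.4% over all promoters. The peak lists are in mm9 and these bases in another build, so whether a peak covered them was not measured.

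The peak lists differed in length, and the values at the 4 loci moved with that length. E0 lists held 36861 to 77130 peaks and E1 lists 64152 to 84776. E4 replicate 1 stood apart, with 104120 peaks over 59.5 Mb, while the other 3 E4 lists held 24426 to 34863 peaks over 7.48 to 12.7 Mb. Across the 12 libraries the bp covered in a window correlated with the bp covered by the whole list at Pearson's r of 0.931 for Fos, 0.960 for Fosb, 0.946 for Jun and 0.973 for Junb. These are descriptions over libraries in which the window is itself part of the list. Totals of cores and windows, and regions that differed between groups, are therefore given as covered bp and as a share of all covered bp of the list, in ppm, and results that rest on E4 replicate 1 are given with and without it. Read depth is not known from peak lists, a region without a peak was only not called there, and more cells with an open site and a more open site per cell cannot be told apart in tissue.

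Regions around the 4 genes were called in more of the libraries than regions of the genome at large, which is given as a description. Of the 59 regions, 13 (22.0%) had a peak in all 12 libraries, against 5.29% of all 170710 regions, and 11 (18.6%) were called in 1 library only, against 35.1%. Their median width was 738 bp against 399 bp over all regions. The median covered bp of the windows over the 12 libraries, 4042 bp at Fos, 4402 bp at Fosb, 5486 bp at Jun and 6902 bp at Junb, lay at the 98.9th, 99.3rd, 99.8th and 99.9th percentile of tiles of the genome as long as a window. Within each window a core was set apart, the gene with 2 kb on either side, which is 9 kb long at Fos, Jun and Junb and 11 kb at Fosb. Each core held a region called in all 12 libraries, and 8 of the 59 regions lay in a core, 24 upstream of it and 27 downstream.

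**Figure D1:**
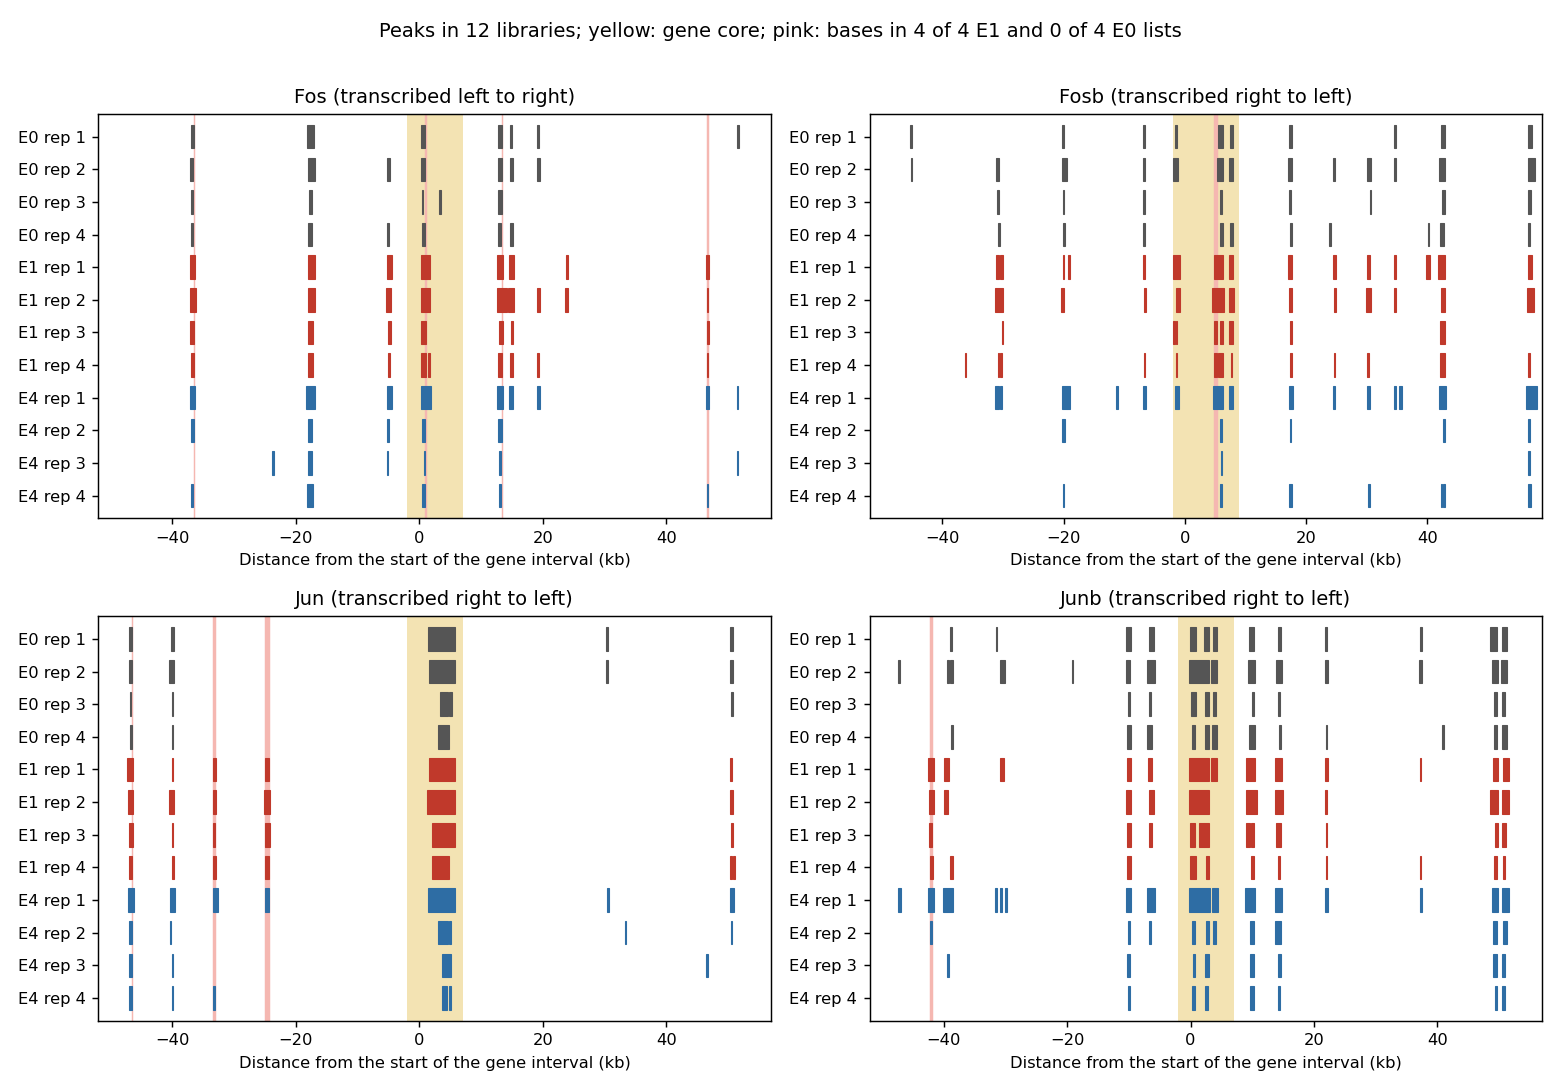
Peaks of each library (rows, E0 grey, E1 red, E4 blue) against distance in kb from the start of the gene interval, with the core in yellow and bases covered in all 4 E1 and no E0 library in pink. Pink bases lie downstream of the core at Jun and Junb, in the core at Fosb, and in 4 short stretches at Fos.

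Over a whole window the covered bp overlapped between groups at all 4 loci. Fos covered 1799 to 4583 bp in E0, 4015 to 8043 bp in E1 and 1985 to 7670 bp in E4, and Fosb 2487 to 8045, 3827 to 9708 and 558 to 10570 bp. Jun covered 2182 to 6229, 5184 to 8244 and 2165 to 8629 bp, and Junb 4349 to 12847, 5208 to 12525 and 3040 to 15928 bp, in the same order of groups. The highest E4 value was that of replicate 1 at each locus. As shares of the list, in the same order of groups, Fos took 112 to 155, 149 to 191 and 129 to 265 ppm, Fosb 160 to 231, 142 to 244 and 74.6 to 216 ppm, Jun 123 to 203, 173 to 228 and 145 to 339 ppm, and Junb 298 to 382, 229 to 315 and 268 to 504 ppm. At Junb the share ran opposite to the bp, with a mean difference between E1 and E0 of -62.4 ppm (exact permutation p = 0.0571) against 1015 bp. In covered bp, 0 of the 4 windows had every E1 above every E0 library, against 8.07% of tiles.

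At Fos, peaks covered more of the core in 3 of the 4 E1 libraries than in any E0 library, and the test did not separate the groups. Covered bp in the core was 666, 725, 448 and 506 bp in E0 replicates 1 to 4, 1487, 1436, 715 and 1045 bp in E1, and 1513, 441, 288 and 561 bp in E4. Only E1 replicate 3, at 715 bp, lay under the highest E0 library, and among E4 libraries only replicate 1 lay above the E0 range. E1 averaged 1171 ± 362 bp (SD, n = 4) against 586 ± 131 bp in E0, a difference of 584.5 bp (two-sided exact permutation p = 0.0571, adjusted p = 0.603 by the Benjamini-Hochberg method over all 10 kb tiles). Fos core as a share of the list was 35.5 ± 8.27 ppm in E1 (SD, n = 4) and 25.7 ± 7.03 ppm in E0 (exact permutation p = 0.143). In E4 it averaged 701 ± 553 bp, or 38.4 ± 12.3 ppm (SD, n = 4). The E4 difference from E0 was 114.5 bp, and -156.2 bp without E4 replicate 1.

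The extent of the Fos core peaks is described next. The widest one measured 666, 725, 227 and 506 bp in E0, 1036, 925, 715 and 692 bp in E1, and 962, 441, 288 and 561 bp in E4, so the E0 and E1 ranges overlapped. All 4 E0 libraries had 1 peak in the region chr12:86814225-86815847, and none of its E0 peaks reached beyond position 86814955. A stretch of 50 bp from 86814956 to 86815005, downstream of that edge in the direction of transcription, was covered in all 4 E1 and in no E0 library. E4 replicate 1 covered all of it, E4 replicate 3 a part, and the other 2 E4 libraries none. E1 replicates 1, 2 and 4 and E4 replicate 1 carried a further peak downstream of it, starting between 86815261 and 86815399, that no E0 library and no other E4 library had. E0 replicate 3 had a separate weak peak of 221 bp at chr12:86817222-86817442, at the 0.312th percentile of its list by score. The score of a peak is the authors' own value and serves here only to rank peaks within a list. The main Fos peak stood at the 39.7th to 87.0th percentile in E0, the 76.0th to 96.3rd in E1 and the 47.2nd to 87.8th in E4.

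**Figure D2:**
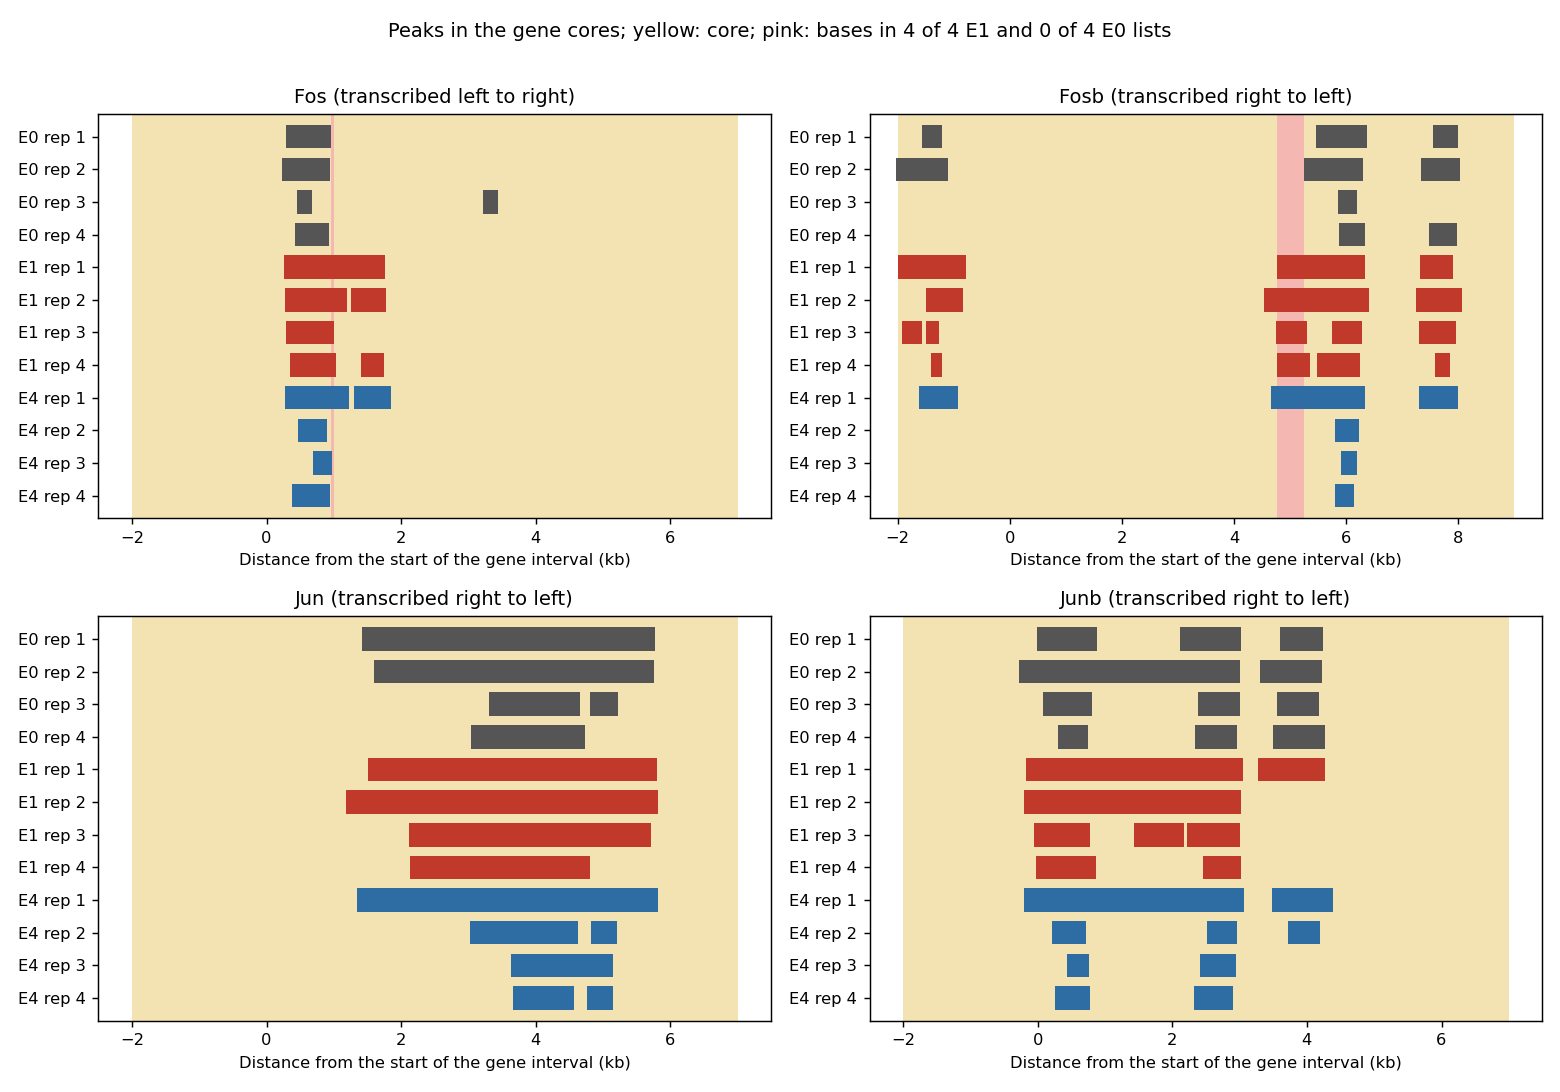
Peaks within the gene cores (rows are libraries, E0 grey, E1 red, E4 blue) against distance in kb from the start of the gene interval. Fos peaks extend further downstream in E1 replicates 1, 2 and 4 and in E4 replicate 1, and the Fosb stretch of 471 bp is covered in the 4 E1 libraries and E4 replicate 1.

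Outside the core, Fos had 4 regions upstream and 6 downstream. The region with the highest scores, chr12:86795668-86797119, 14.9 kb upstream of the core, was called in all 12 libraries at the 89.9th to 99.9th percentile. It covered 1157, 1182, 503 and 608 bp in E0, 1166, 1199, 793 and 774 bp in E1 and 1452, 627, 695 and 895 bp in E4, so the 3 groups overlapped. Its share was 29.0 to 39.3 ppm in E0 and 26.9 to 34.1 ppm in E1, lower on average in E1 while the bp were higher. A region 34.1 kb upstream, chr12:86776815-86777888, covered 522, 524, 272 and 367 bp in E0, 864, 1050, 673 and 530 bp in E1, and 849, 564, 0 and 341 bp in E4. Every E1 library exceeded every E0 library there, and E4 spanned both. The difference between E1 and E0 was 358 bp (exact permutation p = 0.0286, the smallest that 70 assignments of 4 against 4 allow), and the shares, 12.9 to 20.7 ppm in E0 and 21.7 to 24.9 ppm in E1, did not overlap either. The region was named because its bp did not overlap, which fixes this p.

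The other separated Fos region, which lost its call in lists of equal length, was downstream. At chr12:86860458-86860970, 39.5 kb from the core, no E0 library had a peak, the E1 libraries had 391, 252, 232 and 236 bp, and E4 replicates 1 and 4 had 472 and 271 bp with none in replicates 2 and 3. Its E1 peaks were in the lower to middle range of their lists, at the 39.9th to 75.0th percentile, and took 5.66 to 10.4 ppm. The difference between E1 and E0 was 277.8 bp (exact permutation p = 0.0286, fixed by the calls), but 63 bp in lists trimmed to equal length (exact permutation p = 1). A pair of regions 5.52 and 7.39 kb downstream of the core lay close together. The nearer one, chr12:86826517-86828266, was called in all 12 libraries, with 542 to 689 bp in E0, 596 to 1622 bp in E1 and 324 to 1063 bp in E4. The farther one, chr12:86828391-86829362, was called in 3 E0 libraries, all 4 E1 libraries and only replicate 1 of E4. In the gene order of RefSeq, Jdp2 and Batf, which encode other basic leucine zipper proteins, follow Fos on its downstream side. Regions were not assigned to either gene.

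Fosb, the Fos family member from which the stable ΔFosB protein is also made, had a core that took a larger share of the list in all E1 libraries than in any E0 or E4 library. Its core covered 1723, 2659, 347 and 968 bp in E0, 3359, 3331, 2318 and 1809 bp in E1, and 3068, 420, 288 and 342 bp in E4. In bp the E0 and E1 ranges overlapped, through E0 replicate 2, and E1 exceeded E0 by 1280 bp (exact permutation p = 0.114). As a share of the list, the Fosb core took 58.5, 65.2, 26.3 and 54.6 ppm in E0, 84.4, 74.8, 85.9 and 79.6 ppm in E1, and 51.6, 33.0, 38.5 and 33.5 ppm in E4. The lowest E1 library, at 74.8 ppm, was above the highest of the others, at 65.2 ppm.

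The Fosb share averaged 81.2 ± 5.03 ppm in E1, 51.2 ± 17.1 ppm in E0 and 39.1 ± 8.66 ppm in E4 (SD, n = 4 each). E1 exceeded E0 by 30.0 ppm (exact permutation p = 0.0286, adjusted p = 0.300 over all tiles). Such a separation with E1 above E0 was found in 6.23% of 10 kb tiles, and Fosb was the 1 core of 4 that showed it. E4 differed from E1 by -42.1 ppm (exact permutation p = 0.0286, adjusted p = 0.578), as were 4.24% of tiles, and again 1 core of 4. Neither difference passed the adjustment. For E1 against E0 the background in covered bp was 6.71% of tiles, and 0 of the 4 cores were separated on that scale.

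The Fosb core held 3 regions. The region called in all 12 libraries, chr7:19892541-19894399, covered 904, 1059, 347 and 471 bp in E0, 1567, 1859, 1081 and 1340 bp in E1, and 1680, 420, 288 and 342 bp in E4. Every E1 value exceeded every E0 value, by 766.5 bp on average (exact permutation p = 0.0286, adjusted p = 0.454 over all regions), and E4 replicates 3 and 4 lay below the lowest E0 library. As a share of the list the region took 26.0 to 30.7 ppm in E0, 39.4 to 59.0 ppm in E1 and 28.2 to 38.5 ppm in E4. On that scale E4 averaged above E0, by 5.91 ppm (exact permutation p = 0.0571). A stretch of 471 bp within the region, chr7:19892775-19893245, on the side that faces downstream, was covered in all 4 E1 libraries, no E0 library and 1 E4 library, replicate 1. With lists trimmed to equal length the difference of the region was 483.8 bp (exact permutation p = 0.257).

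The other core regions of Fosb were called less often. At chr7:19885981-19887212 the E0 libraries had 362, 913, 0 and 0 bp, the E1 libraries 1202, 652, 577 and 196 bp, and E4 replicate 1 alone of its group had a peak, of 698 bp. At chr7:19895242-19896061 the values were 457, 706, 0 and 497 bp in E0 and 590, 820, 660 and 273 bp in E1, and E4 replicate 1 had 690 bp with no peak in the other 3. Both were called in all 4 E1 libraries and in 0 of the 3 E4 libraries with short lists. Outside the core, 3 regions were called in 11 libraries each, all of them upstream. The one with the highest mean score percentile was chr7:19905075-19905794, 8.07 kb upstream, with 257 to 681 bp in E0, 364 to 682 bp in E1 and 0 to 583 bp in E4.

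Some Fosb regions took a smaller share in E1 than in E0. A region 17.4 kb downstream, chr7:19867586-19868610, was called in 4 E0, 2 E1 and 3 E4 libraries, and one 4.41 kb downstream, chr7:19881093-19881591, in 4 E0, 3 E1 and 1 E4 library. In bp their groups overlapped, with 317 to 750 bp in E0 against 0 to 574 bp in E1 for the first and 269 to 399 bp against 0 to 337 bp for the second. As a share of the list each E0 library was above each E1 library at both. RefSeq places Ercc1 and Vasp among the near neighbours of Fosb, and the regions were not assigned to a gene.

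**Figure D3:**
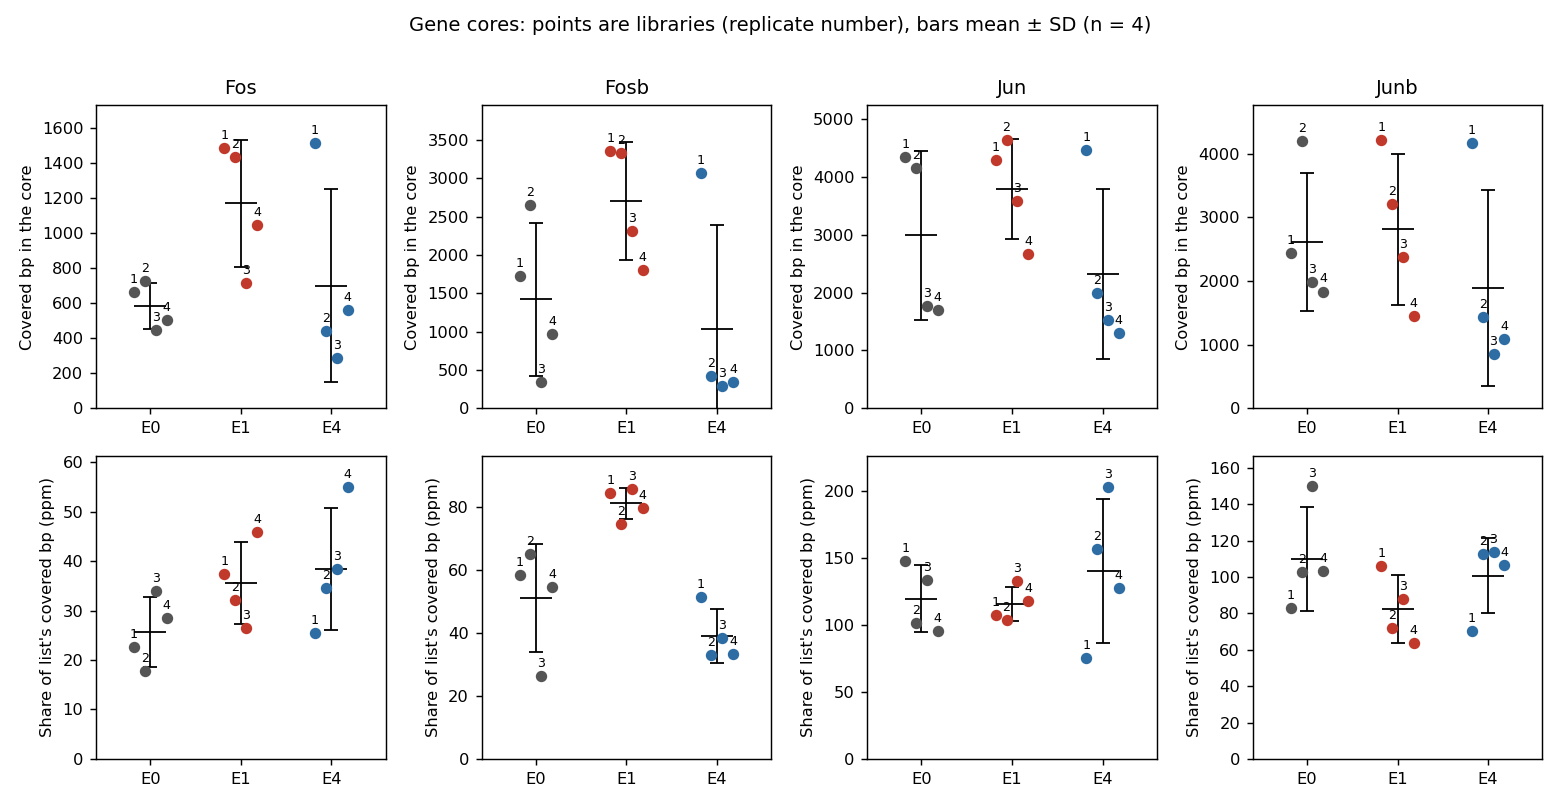
Covered bp in the gene core (top) and its share of all covered bp of the list in ppm (bottom) for each library, with replicate numbers, the mean and the SD (n = 4), cut at 0 where it runs below. The Fosb share is 74.8 to 85.9 ppm in E1 and at most 65.2 ppm in every other library, while the other 3 cores overlap between groups.

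Jun had the widest peak of the 4 genes. Its core region, chr4:94716186-94720819, covered 4346, 4153, 1764 and 1699 bp in E0, 4285, 4634, 3591 and 2675 bp in E1, and 4469, 1995, 1521 and 1301 bp in E4. It ranked between the 92.8th and the 99.1st percentile by score in all 12 lists. The E0 libraries fell into 2 wide and 2 narrow ones, replicates 3 and 4 with the shorter lists being narrow, and the E1 range overlapped E0. E1 averaged 3796 ± 864 bp and E0 2990.5 ± 1456 bp (SD, n = 4, exact permutation p = 0.314), and as a share of the list E1 was -4.09 ppm from E0 (exact permutation p = 0.8). In the lists with a narrow core, the peak was centred on the upstream part of the region, and the wide ones extended from it mainly downstream.

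The differences at Jun lay downstream of the gene, where 2 regions were called in all E1 and no E0 library. At chr4:94689923-94690881, 22.1 kb from the core, the E1 libraries covered 645, 959, 724 and 677 bp, E4 replicate 1 covered 652 bp, and the other 7 libraries had no peak. The peak was strong where it was called, at the 86.7th to 97.1st percentile by score. At chr4:94681516-94682397, 30.6 kb from the core, the E1 libraries covered 517, 487, 260 and 493 bp, E4 replicates 1 and 4 covered 882 and 170 bp, and E0 and the other 2 E4 libraries had none. The difference in means was 751 bp for the first and 439 bp for the second (exact permutation p = 0.0286 for each). These p-values were fixed by the calls for which the regions were named, and add no support. Their E1 shares were 16.2 to 29.8 ppm and 9.64 to 21.7 ppm. In lists of equal length the nearer region kept its difference of 751 bp, and the farther one had 317.5 bp (exact permutation p = 0.143).

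Another downstream region of Jun was present in every library and differed in size. At chr4:94667722-94668797, 44.2 kb from the core, the peak covered 380, 509, 220 and 275 bp in E0, 839, 959, 686 and 477 bp in E1, and 1048, 453, 513 and 471 bp in E4. E1 replicate 4, at 477 bp, lay under the highest E0 library, so the E0 and E1 ranges overlapped in bp (exact permutation p = 0.0571). As a share of the list it took 12.5 to 16.7 ppm in E0, 21.0 to 25.4 ppm in E1 and 17.6 to 68.6 ppm in E4, so that both later groups lay above E0 (exact permutation p = 0.0286 for each). By score it ranked 29854, 13415, 11087 and 31701 from the top in E0 lists, 1853, 2616, 876 and 2025 in E1, and 1726, 1939, 2076 and 2454 in E4. Ranks from lists of different lengths show no change by themselves. Every E0 rank was farther from the top than every E1 and E4 rank.

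The remaining Jun regions showed no such pattern. One 37.6 kb downstream, chr4:94674434-94675384, was called in all 12 libraries with 208 to 796 bp in E0, 226 to 798 bp in E1 and 223 to 728 bp in E4. The 4 regions upstream of Jun were called in 9, 3, 1 and 1 libraries. The Jun window held 5, 5, 5 and 3 peaks in E0, 6, 6, 6 and 7 in E1, and 7, 6, 4 and 5 in E4. E1 numbers were all above E0 (exact permutation p = 0.0286, adjusted p = 0.394 over all tiles of window length), as in 7.08% of tiles, and Jun was the 1 window of 4 where this was so. As a share of the peaks of the list the difference turned direction, to -2.80 ppm (exact permutation p = 0.886). In lists trimmed to equal length the groups overlapped (p = 0.114 by exact permutation), and with the replicate number as a block the exact p was 0.125.

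Junb, a Jun family member that is a weaker activator than Jun in many settings, had peaks in its core in all 12 libraries. The core region chr8:87499729-87503071 covered 1787, 3281, 1368 and 1071 bp in E0, 3221, 3216, 2372 and 1444 bp in E1, and 3270, 959, 849 and 1089 bp in E4. Its groups overlapped, and its share of the list averaged 76.2 ± 10.6 ppm in E1 and 76.3 ± 20.5 ppm in E0 (SD, n = 4). The 4 longest lists had 1 wide peak there, and the other lists had 2 or 3 separate peaks within it. Over the whole core Junb took 110 ± 28.5 ppm in E0, 82.4 ± 18.7 ppm in E1 and 101 ± 20.7 ppm in E4 (SD, n = 4 each), with exact permutation p = 0.200 for E1 against E0.

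The second core region of Junb, just upstream at chr8:87503272-87504383, went the other way in its calls. It covered 651, 915, 612 and 765 bp in E0, 996 bp in E1 replicate 1 and none in the other 3 E1 libraries, and 900 and 479 bp in E4 replicates 1 and 2 with none in replicates 3 and 4. Where called, it scored low, from the 1.05th to the 59.3rd percentile. Without E1 replicate 1 it would be a region of all E0 and no E1 library. A region 3.70 kb downstream of the core, chr8:87492883-87494297, covered 851, 1170, 355 and 823 bp in E0, 533, 912, 411 and 0 bp in E1, and 1306, 404, 0 and 0 bp in E4. Its share of the list was higher in every E0 than in every E1 library.

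Farther from Junb, 1 region was called in E1 and not in E0. At chr8:87457505-87458483, 39.5 kb downstream of the core, the E1 libraries covered 904, 853, 407 and 561 bp, E4 replicates 1 and 2 covered 979 and 304 bp, and all E0 libraries and E4 replicates 3 and 4 had no peak. The difference between E1 and E0 was 681 bp (exact permutation p = 0.0286, fixed by the calls), and 541 bp in lists of equal length (exact permutation p = 0.143). Its E1 share was 15.1 to 24.7 ppm. Its scores in E1 ranged widely, from the 32.2nd to the 92.4th percentile. The Junb window is dense in genes, with Prdx2, Rnaseh2a and Hook2 among the neighbours in RefSeq, and 6 of its 19 regions were called in all 12 libraries. One of these, chr8:87489494-87490363, 7.64 kb downstream, covered 358 to 838 bp in E0, 542 to 843 bp in E1 and 348 to 801 bp in E4. The number of Junb window peaks was 13, 15, 9 and 12 in E0, 14, 11, 12 and 11 in E1, and 17, 11, 8 and 7 in E4, which overlapped. As a share of all peaks of the list it was lower in every E1 than in every E0 library, by a mean difference of -69.4 ppm (exact permutation p = 0.0286), as in 3.48% of tiles.

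**Figure D4:**
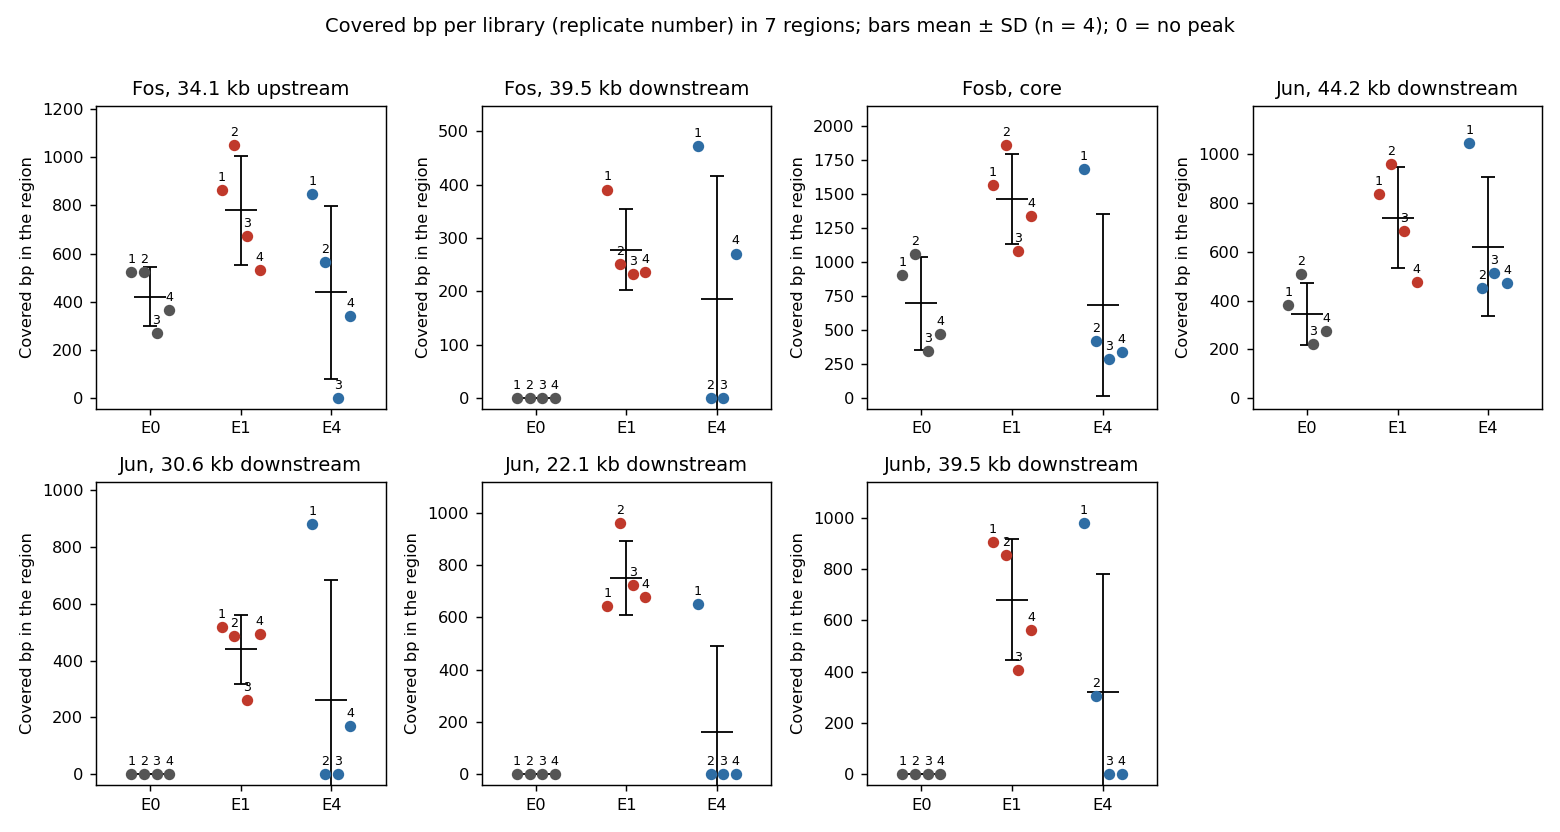
Covered bp of each library, with replicate numbers, the mean and the SD (n = 4, cut at the axis where it runs below), in 7 regions of the 4 loci; 0 means no peak. In 4 of the panels all E0 libraries are at 0 and the E1 libraries are at 232 to 959 bp, and E4 replicate 1 has a peak in each panel.

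Counted over all loci, E1 against E0 gave more gained than lost regions. Of the 53 regions with a peak in at least 1 of the 8 libraries, 4 were called in all 4 E1 and no E0 library, which is 7.55%, against 3.71% of all 150204 regions. They were 1 of 11 at Fos, 0 of 17 at Fosb, 2 of 7 at Jun and 1 of 18 at Junb, and all 4 lay 22.1 to 39.5 kb downstream of a core. No region (0 of 53) was called in all E0 and no E1 library, against 0.206% of all regions. By covered bp, 6 of 53 regions (11.3%) had all E1 above all E0 values, against 5.80%, and 0 the reverse, against 0.491%. By share of the list, 7 regions (13.2%) were higher in E1, against 5.43%, and 3 (5.66%) lower, against 2.87%.

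No region passed a test adjusted over all regions. For E1 against E0 the lowest adjusted p was 0.729 by Fisher's exact test on calls and 0.454 by the exact permutation test on covered bp, while 5889 and 9457 of all regions had an unadjusted p under 0.05. With 4 libraries a group neither test can go below 0.0286. Any 2 groups of 4 that do not overlap reach that value in the permutation test. At regions named for a call or for such a separation, it was fixed by that choice and adds no support. With the replicate number as a block the exact p of each separated E1 and E0 result in covered bp was 0.125. That is the smallest that 16 sign flips allow, so no call could be made in the block and its loss says nothing of the size of a difference. In lists trimmed to their 24426 highest scores, the length of the shortest, only the Jun region 22.1 kb downstream was still called in all E1 and no E0 library (1 of 34 regions or 2.94%, against 4.0% of all regions), and the Fosb region 17.4 kb and the Junb region 3.70 kb downstream were called in all E0 and no E1 library (2 of 34 or 5.88%, against 1.62%).

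Single bases were counted as well, in a step added after the data had been seen, because a wide peak can join separate ones. Bases covered in all 4 E1 and no E0 library made up 863 bp or 9.57% of the bases tested at Jun, 471 bp or 3.70% at Fosb, 278 bp or 3.04% at Fos and 350 bp or 2.06% at Junb, against 2.44% over the genome. The Fosb bases all lay in its core, and at Jun and Junb all lay outside it. At Fos they lay in 4 stretches, of which 163 bp were in the region 39.5 kb downstream and 50 bp in the core. None of the 4 windows had a base covered in all E0 and no E1 library, against 0.148% over the genome.

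For E4, the 4 loci gave few calls while E4 replicate 1 was kept. Against E0, 0 of 57 regions were called in all E4 and no E0 library, against 0.165% of regions, and 0 in all E0 and no E4 library, against 0.177%. By share of the list the Jun region 44.2 kb downstream was higher in all E4 libraries, 1 region (1.75%) against 0.495%, and the Fosb region 4.41 kb downstream lower, 1 region (1.75%) against 2.32%. Against E1, 0 of 54 regions were called in all E4 and no E1 library (0.0112% of regions) or in all E1 and no E4 library (0.506%). By share, 5 regions (9.26%) were lower in every E4 than in every E1 library, against 3.94%: the Fos region 7.39 kb downstream, 2 of the 3 core regions of Fosb, the Jun region 22.1 kb downstream and 1 upstream of Junb. The lowest adjusted p in either comparison was 1 by both tests (Fisher's exact and exact permutation), with 480 and 738 regions of the genome under an unadjusted 0.05 for E4 against E0 and 782 and 1479 for E4 against E1.

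Without E4 replicate 1 the picture in calls was different. In the other 3 E4 libraries, 6 regions of the 4 windows that all E1 libraries had were not called, against 7.0% of all regions: the Fos region 7.39 kb downstream, the Jun region 22.1 kb downstream, the Junb region 14.8 kb upstream, and at Fosb the region 27.9 kb downstream with the 2 core regions that were not shared by all libraries. Against E0, the Fosb region 4.41 kb downstream was called in all 4 E0 and none of the 3 E4 libraries, 1 region against 3.19%. The number of window regions tested without E4 replicate 1 is not given. For E4 against E1 it cannot exceed the 54 tested with that library, so the 6 regions were a larger share than 7.0%. The 1 region of E4 against E0 is not placed against 3.19%. The Fosb core differed from E1 by -2354 bp without that library and by -1675 bp with it (exact permutation p = 0.0286 and 0.0857). The 3 remaining E4 lists were shorter than all E0 and E1 lists, so list length and group cannot be told apart in these counts.

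Over the 12 libraries the share of the list taken by each window followed that of some loci more than others. The share at Fos correlated with that at Jun at Pearson's r of 0.795 and with that at Junb at 0.524, and Jun and Junb correlated at 0.530. The share at Fosb ran the other way, at -0.408 with Fos, -0.783 with Jun and -0.548 with Junb. In covered bp all 6 pairs lay between 0.880 and 0.955. These values describe 12 libraries that share the length of their list as a common factor, and single tiles of window length elsewhere reached 0.956 with Fos and 0.948 with Junb.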

How the data were processed

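One peak list per library was used, for 12 libraries in 3 groups of 4 taken from the sample titles. Bowtie2 and the mm9 build are named in the submitters' processing notes, and the deposited peaks bear names of the kind MACS gives. The caller's version, threshold and control, the shift of reads for the transposase and the handling of duplicates are not stated for these lists, and each could move peak edges or list lengths. Each peak has a score set by the authors, on a scale not given in the sources used here. It was used to rank and filter peaks within a list, and never tested.

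The lists give no reads, so depth is unknown and no interval for counting error can be given. No 2 lists held identical peaks, and p-values measure the spread between libraries, each from 1 mouse per the labels. Peaks on chromosome Y, 9 to 43 per library, were left out. Peaks on chromosomes 1 to 19 and X were joined where they overlapped by 1 bp or more (checked with bedtools 2.31.1). Coordinates are in mm9, counted from 1. Covered bp, peak number and shares of the list were computed with Python 3.11.15, numpy 2.4.6 and scipy 1.17.1, and drawn with matplotlib 3.10.9. The core is the window less 48 kb on each side.

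Groups of 4 were compared by exact two-sided permutation over all 70 assignments, and calls per region by Fisher's exact test. Benjamini-Hochberg adjustment ran over all merged regions, or over all 10 kb tiles for cores and tiles of window length for windows, with the 4 loci among them. The steps were run on simulated data with planted sites whose recovery was built in, which checks the code only and gives no rate of false calls. Same-numbered E1 and E0 libraries deviated together from their group means, with correlations of 0.104, 0.435, 0.157 and 0.227 for replicates 1 to 4, which is a hint from the data and not from the labels. For E4 and E0 the values were 0.296, -0.0972, 0.271 and 0.0591, and for E4 and E1 0.204, -0.03085, 0.158 and 0.000675. E4 numbers were not taken as paired with either group, though some of these values were as high as those of E1 and E0. A fit with the number as a block was therefore made by sign flips.

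Regions were named if they overlapped a core, were called in all libraries of one group and none of another, did not overlap in covered bp between E1 and E0, or were the region outside each core present in most libraries, with ties settled by the highest mean score percentile. Others named were chosen after their values were seen. The loci, lists and rules were chosen with earlier results of these data known. Promoter letters came from the RefSeq table for GRCm38.p6, in which all 4 genes matched. An mm9 genome and annotation were not used here, so regions were not assigned to genes, upstream and downstream come from the GRCm38 strand, and the lists of other AP-1 genes and of cell type markers were not run. The tissue label was thus not checked against markers.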

Additional observations from a re-analysis of the deposited data

Results flagged for a closer look

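Among 36 combinations of a locus, a measure and a group of 4, 6 had a library far from the other 3, where chance flags about 1 in 20. In 4 of them the library was E4 replicate 1, which also had the longest list. The Fosb core covered 3068 bp there against 288 to 420 bp in the other E4 libraries. The whole windows covered 7670 bp against 1985 to 2651 bp at Fos, 10570 bp against 558 to 2202 bp at Fosb, and 8629 bp against 2165 to 3133 bp at Jun. The other 2 were peak numbers of the Jun window, with 3 peaks in E0 replicate 4 against 5 in each of the other E0 libraries, and 7 peaks in E1 replicate 4 against 6 in each of the other E1 libraries. In both, the other 3 values were equal, so a difference of any size would have been flagged.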

How the results depend on the processing

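Depth is unknown, a peak that is not called may lie just under the threshold, and E4 replicate 1 carries most of the E4 values in bp. Taken as a share of the list, several differences in bp turned direction. For E1 minus E0 these were the cores of Jun (-4.09 ppm) and Junb (-27.4), the Junb window (-62.38), and the window peak numbers of Fos (-1.855), Fosb (-27.26) and Jun (-2.803). The Fosb core became separated (30.04), and so did the Junb peak number (-69.37). With a narrower core the Fosb core was also separated (766.5 bp). That core held only the Fosb core region called in all 12 libraries, so this repeats the difference already given for it. For E4 minus E0 the share turned the Jun core (20.85), the Jun and Junb windows (69.62 and 39.89) and the Junb peak number (27.51). For E4 minus E1 it turned the cores of Fos (2.836), Jun (24.93) and Junb (18.34), the windows of Fos (38.99), Jun (35.14) and Junb (102.3) and the peak numbers of Fos (44.11), Jun (55.84) and Junb (96.88), and it separated the Fosb core (-42.07).

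Among named regions the share turned, for E1 minus E0, the Fos region 14.9 kb upstream (-5.25), the Fosb region 8.07 kb upstream (-3.132), the Jun core region (-4.09), the Junb region 7.64 kb downstream (-7.101) and the wide Junb core region (-0.1433). For E4 minus E0 it turned the common Fosb core region (5.909), the Jun core region (20.85), the Junb region 7.64 kb downstream (7.521) and the wide Junb core region (11.27). For E4 minus E1 it turned the Fos region 14.9 kb upstream (33.61), the Fos core region (2.836), the Fosb region 8.07 kb upstream (2.231), the Jun regions 44.2 kb downstream (19.7) and in the core (24.93), the Junb region 7.64 kb downstream (14.62) and the wide Junb core region (11.42).

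In lists of equal length, E1 minus E0 turned for the Fosb and Junb windows (-217 and -615.8 bp), the Fosb peak number (-2.25) and the Fosb core region at its upstream end (-135.8 bp). The Jun peak number was no longer separated (1.75), and the Junb peak number was (-2.5). E4 minus E0 turned for the Jun window (58.75 bp), and E4 minus E1 for the Junb peak number (1.25) and the Fos region 39.5 kb downstream (122.8 bp). Among the separated regions it left E1 minus E0 at 63 bp (from 277.8 bp) for the Fos region 39.5 kb downstream, 483.8 bp for the common Fosb core region, 317.5 bp for the Jun region 30.6 kb downstream and 541 bp for the Junb region 39.5 kb downstream, none of them separated. With the replicate number as a block, the difference of the Jun peak number was 1.75 as before. Sign flips over 4 pairs cannot give a p below 0.125, so the block could make no call, and the p of 0.125 here and at the other separated E1 and E0 results is no sign of instability.

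Of 53 regions tested, 4 were called in all E1 and no E0 library. In lists of equal length this was 1 of 34 (all regions: 4.0%), with scores of at least 100 it was 2 of 40 or 5.0% (all regions: 4.68%), and where a call needed peaks over 50% of a region it was 1 of 52 or 1.92% (all regions: 2.64%). The reverse count of 0 became 2 of 34 in lists of equal length (all regions: 1.62%) and 2 of 53 or 3.77% with 3 or 4 of 4 against 0 or 1 of 4 (all regions: 2.45%). That looser rule gave 6 of 57 or 10.5% with E0 above E4 (all regions: 7.46%) and 8 of 54 or 14.8% with E1 above E4 (all regions: 14.1%), both from 0. Leaving out 1 library at a time gave 0 to 1 for E0 without E1, 0 to 1 for E0 without E4 and 0 to 6 for E1 without E4. The highest values came without E1 replicate 1 in the first case and without E4 replicate 1 in the other 2. Over all regions, leaving out E4 replicate 1 raised the share called from 0.177% to 3.19% for E0 without E4. For E1 without E4 it raised that share from 0.506% to 7.0%. The share over all regions without E1 replicate 1 is not given, so the first count cannot be set against one.

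Leaving out 1 library at a time gave ranges that crossed 0 or the threshold in these cases. For E1 minus E0 they were 479.1 to 736.4 bp for the Fos core (separated without E1 replicate 3), -268.5 to 727.6 bp for the Junb core (without E1 replicate 1 and E0 replicate 2), -262.5 to 2570.2 bp for the Junb window (without E0 replicates 3 and 2), 2.083 to 3.083 for the Fos peak number and -1.333 to 0.6667 for the Junb peak number. For E4 minus E0 they were -156.2 to 252.1 bp (Fos core), -1074 to 16.83 bp (Fosb core), -949.4 to 945.6 bp (Fos window), -3334 to 3.083 bp (Fosb window), -1594 to 584.4 bp (Jun window), -4152 to 377.7 bp (Junb window), -0.9167 to 0.75 (Fos peak number) and -5.583 to -0.9167 (Fosb peak number). The lowest of each came without E4 replicate 1. For E4 minus E1 they were -2354 to -1428 bp (Fosb core) and -3918 to -1763 bp (Jun window), again lowest without E4 replicate 1. Other ranges of cores and windows turned no direction and crossed no threshold, but some were wide, among them 375.2 to 1258 bp for the Jun core and 855.4 to 2929 bp for the Fosb window in E1 minus E0, and -1385 to -217.2 bp for the Jun core and -1487 to -198.2 bp for the Junb core in E4 minus E0.

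Of the named regions, the range crossed 0 for E4 minus E0 at the Fos regions 34.1 kb upstream (-119.6 to 163.4 bp), 14.9 kb upstream (-123.5 to 161.2 bp) and in the core (-101 to 307.3 bp), at the Fosb core regions (-318.8 to 53.83 bp at the downstream end and -345.2 to 118.8 bp for the common one) and at the wide Junb core region (-911.1 to 133.1 bp). For E4 minus E1 it crossed 0 at the Fos region 14.9 kb upstream (-244 to 31 bp) and the upstream Junb core region (-89.33 to 344.8 bp). For E1 minus E0 it did so at the Fosb region 8.07 kb upstream (-31.25 to 123.1 bp) and the Junb region 7.64 kb downstream (-79.33 to 80.67 bp). Exact permutation p for E1 minus E0 rose to 0.0571 at the common Fosb core region without E1 replicate 1, 2 or 4. It did so too with each E0 replicate left out in turn, there and at the Fos region 34.1 kb upstream. In all of these the E1 and E0 ranges still did not overlap, because leaving out a library cannot create an overlap. The rise thus comes from the permutation test on groups of unequal size, and is no sign of instability. Exact permutation p for E1 minus E0 fell to 0.0286 at the Fos core region without E1 replicate 3 and at the Jun region 44.2 kb downstream without E1 replicate 4. The upstream Junb core region reached 0.0286 without E1 replicate 1. Threshold crossings in E4 comparisons came without E4 replicate 1. The cause of the other changes was not tested. In all, 939 recomputed values kept their direction and their side of the threshold, and 88 turned direction. A further 23 crossed the threshold to become stronger, 23 became weaker, and 10 counts of called regions changed.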
